A study of Homo sapiens with 2 samples.

Results

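The genes described here are the hypoxia-inducible transcription factors, the enzymes that control them and the vascular endothelial growth factor (VEGF) genes: HIF1A, EPAS1, ARNT, EGLN1, EGLN3, VEGFA, VEGFB, VEGFC, CA9 and ADM. They were taken as every probe set whose platform annotation carries one of these 10 symbols. Of the 10 genes, 9 had at least 1 probe set, 24 in all, out of 19775 genes measured in the series. CA9, the hypoxia-induced carbonic anhydrase of the cell surface, had no probe set under its name and was not analysed here.

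The samples were 2 human melanoma cell lines, each measured on 1 Affymetrix U133 Plus 2.0 array of 54675 probe sets. IGR39 was established from a primary skin tumour that made no pigment, and IGR37 from a metastasis in a lymph node. As background, they are known as a pair of lines from the same patient. Both were cultured in DMEM with 10% foetal bovine serum and antibiotics, and the labels name no treatment, no low-oxygen culture and no genetic change for either. The comparison therefore concerns a primary and a metastatic line as they grow in culture, and each stands for its group as a single line and a single array.

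In cells with enough oxygen, the prolyl hydroxylases encoded by EGLN1 and EGLN3 mark the HIF alpha subunits, encoded by HIF1A and EPAS1, for destruction through the VHL ubiquitin ligase. When oxygen falls, the alpha subunits escape this mark, pair with the constant partner encoded by ARNT and switch on target genes, among them VEGFA, ADM, CA9 and the hydroxylase genes themselves. VEGFA drives the growth of blood vessels, VEGFC that of lymphatic vessels, and in melanoma both are known as signals from the tumour to its surroundings. Because the alpha subunits are controlled mainly as proteins, an RNA level of HIF1A or EPAS1 is no measure of HIF activity.

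To show the regulatory sequence of the genes that differed at least 2-fold between the lines, the 250 bases before the RefSeq gene start (build GRCh38.p14) are printed 5′ to 3′ on the gene's strand for EPAS1, ARNT, EGLN1 and VEGFC. Capitals mark the core of the hypoxia response element, the DNA sequence bound by HIF, searched on both strands as ACGTG or GCGTG. The windows lie at chr2:46297157-46297406 (plus strand), chr1:150876600-150876849 (minus strand), chr1:231422288-231422537 (minus strand) and chr4:176792923-176793172 (minus strand).
EPAS1: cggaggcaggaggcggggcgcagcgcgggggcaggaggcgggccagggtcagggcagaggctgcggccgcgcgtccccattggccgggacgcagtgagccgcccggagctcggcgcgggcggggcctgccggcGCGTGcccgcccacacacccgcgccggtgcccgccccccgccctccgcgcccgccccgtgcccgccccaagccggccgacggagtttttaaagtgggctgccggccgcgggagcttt
ARNT: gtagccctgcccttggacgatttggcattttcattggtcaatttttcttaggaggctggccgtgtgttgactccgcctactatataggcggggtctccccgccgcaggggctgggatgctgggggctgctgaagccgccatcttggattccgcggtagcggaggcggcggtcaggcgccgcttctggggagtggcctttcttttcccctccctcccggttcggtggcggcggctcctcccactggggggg
EGLN1: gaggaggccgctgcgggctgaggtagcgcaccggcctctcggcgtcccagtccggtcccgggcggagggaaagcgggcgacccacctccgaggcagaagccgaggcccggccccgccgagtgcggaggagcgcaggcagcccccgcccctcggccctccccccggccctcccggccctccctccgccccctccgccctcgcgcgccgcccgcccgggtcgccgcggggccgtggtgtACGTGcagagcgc
VEGFC: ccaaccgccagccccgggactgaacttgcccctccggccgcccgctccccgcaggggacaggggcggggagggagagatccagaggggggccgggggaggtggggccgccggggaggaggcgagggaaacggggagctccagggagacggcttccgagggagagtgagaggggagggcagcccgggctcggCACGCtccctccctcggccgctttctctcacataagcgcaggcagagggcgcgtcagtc

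The EGLN1 window held 1 ACGTG, beginning 13 bases before the gene start on the gene's strand. The EPAS1 window held 1 GCGTG at 117 bases, the VEGFC window 1 GCGTG on the opposite strand at 59 bases, and the ARNT window held neither. The table of promoters held windows for 9 of the 10 genes, VEGFA not among them, and a second window for HIF1A. ACGTG occurred in those of EGLN1 and CA9, and GCGTG in those of EPAS1, VEGFB, VEGFC and ADM and in the HIF1A window that ends at the gene start. The second HIF1A window does not end at the gene start and held neither. Of all 35116 promoter windows of this length, 18.5% held ACGTG and 32.2% held GCGTG, so 43.2% held at least 1 of these. ACGTG can lie inside the E-box CACGTG, which occurred in 6.34% of all windows and in none of these 10. These matches describe letters in a window and show no binding.

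Values are RMA expression levels on the log2 scale, and a difference is the level in IGR37 minus that in IGR39, so that 1 is a 2-fold difference. A gene is represented by its brightest probe set over both arrays, and counts are of genes that reached log2 6, a chosen minimum level, on the brighter array. Of the 9 measured members, 8 reached this minimum, on 12 of the 24 probe sets. With 1 array per line no test is possible, and no difference has a replicate check. Where a level is lower, fewer expressing cells and less RNA per cell cannot be told apart.

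Among the 8 members at this level, 3 were at least 2-fold lower in IGR37 (EPAS1, VEGFA and VEGFC), 2 were at least 2-fold higher (ARNT and EGLN1) and 3 lay within 2-fold (HIF1A, VEGFB and ADM). Of the 8501 genes at or above the minimum, 11.4% were at least 2-fold higher in IGR37 (973 genes) and 9.50% at least 2-fold lower (808 genes), 21.0% in either direction. The members' median difference was -0.70, against 0.07 over all these genes, whose differences had an SD of 1.18. At the level of probe sets, 4 of the 12 member probe sets were past the 2-fold limit upwards and 4 downwards, while 21.8% of 13152 probe sets at the minimum differed 2-fold in either direction. VEGFC lay far from the other members, and ARNT, EGLN1 and EPAS1 lay just past the 2-fold limit.

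**Figure D1:**
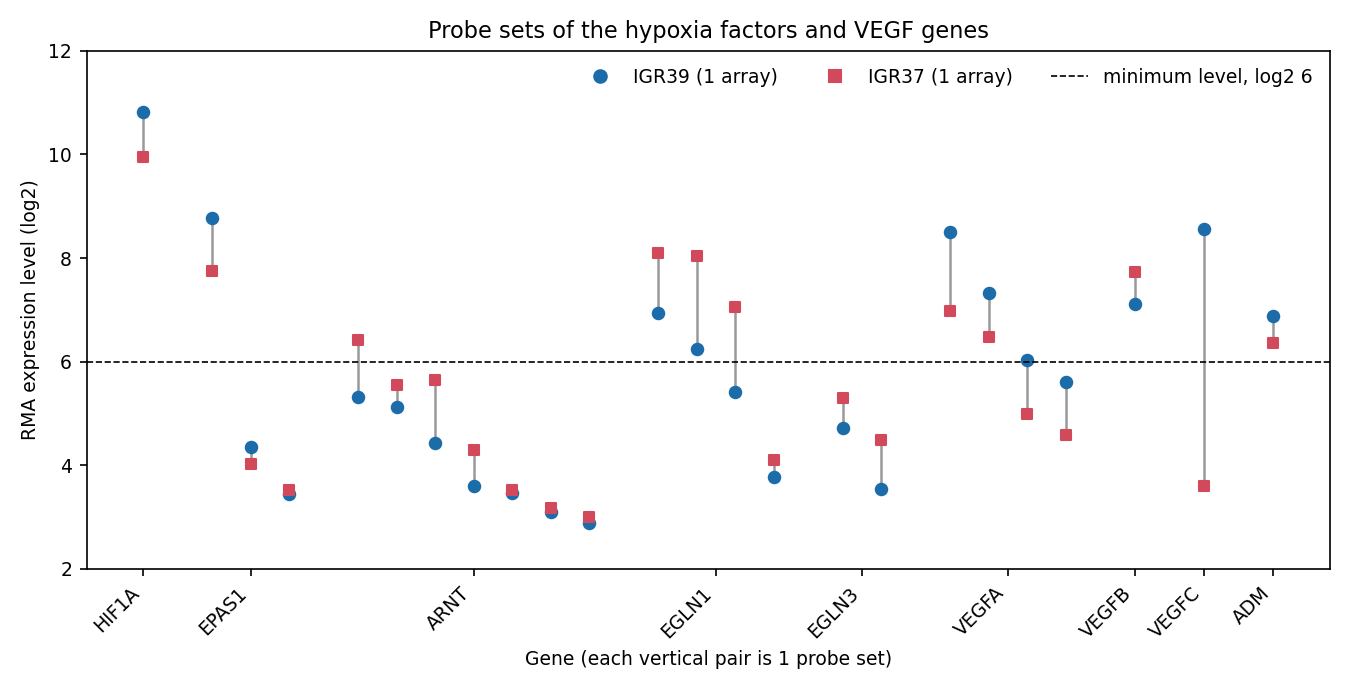
RMA expression level (log2) of every probe set of the 9 measured members in IGR39 (circles) and IGR37 (squares), 1 array each, with the minimum level of log2 6 as a dashed line. The 4 VEGFA probe sets lie lower in IGR37, the 4 EGLN1 and 7 ARNT probe sets lie higher, and VEGFC lies at 8.57 in IGR39 and at 3.60 in IGR37.

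Several values set a scale for these differences. The 18 hybridisation spike-ins differed between the arrays by -0.14 to 0.21, and the 24 for poly-A spike-ins, which enter the RNA ahead of labelling, by -0.47 to 0.68. The differences of probe sets of the same gene spread around their mean with a pooled SD of 0.40 (3178 genes). Neither the spike-ins nor this SD measure variation between cultures of a line. Of 7 measured markers of the melanocyte lineage, all stood between 8.38 and 13.05 in IGR37, whereas in IGR39 only MITF, at 7.57, reached log2 6, so most markers of the lineage were absent or near background in IGR39. All 8 endothelial markers lay below log2 6 in both lines, with ranges of 3.22 to 4.98 (IGR39) and 3.27 to 4.81 (IGR37). None of the 5 measured macrophage and lymphocyte markers reached log2 6 either. Of 6 fibroblast markers, 0 reached it in IGR39 and 2 in IGR37, where LUM was at 6.26 against 3.41 in IGR39 and COL1A1 at 6.15 against 5.87, and the part of such cells in the differences was not tested. Of 4 keratinocyte markers only KRT10 reached it, at 9.13 and 9.08. Of 2 renal epithelial markers, PAX8 reached it in both lines, at 6.73 and 6.79, and CDH16 did not, at 3.93 and 3.90. Centring on housekeeping genes instead of using the values as deposited shifts every difference down by 0.21. It turns the split of 973 higher and 808 lower genes into 704 and 1085. The housekeeping list itself leaned towards IGR37: of its 26 genes with a probe set, 4 passed the 2-fold limit upwards and 0 downwards. Whether this centring removes a technical shift or a difference between the lines was not tested.

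The alpha subunit genes were both lower in IGR37. HIF1A, whose product answers acute loss of oxygen in nearly all cell types, was measured by 1 probe set at 10.82 in IGR39 and 9.94 in IGR37. The difference of -0.88 is 1.84-fold, and 25.7% of all genes at the minimum differed by as much or more. EPAS1, which encodes HIF-2 alpha, was at 8.78 and 7.75 on its brightest probe set, a difference of -1.03 or 2.04-fold, reached by 20.2% of genes. Its remaining probe sets were near background in both lines, at 4.36 and 4.02 and at 3.44 and 3.53, so the value rests on 1 probe set. Both alpha subunit genes stood above the minimum in each line, and their differences were 0.15 apart. This is less than the pooled SD of 0.40 between probe sets of the same gene, which does not measure variation between genes or cultures. HIF1A too passed the 2-fold limit when a lowess trend was removed (-1.01) or the differences were centred on housekeeping genes (-1.09).

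ARNT, the beta subunit that both alpha subunits need to bind DNA, was higher in IGR37 on each of its 7 probe sets. Only the brightest reached the minimum, with 5.32 in IGR39 against 6.42 in IGR37. This difference of 1.10 is one that 18.3% of genes matched or passed. That probe set can also bind other transcripts (its name ends in _x_at), and IGR39 lay below log2 6. With IGR39 set to log2 6 the fold is 1.33 instead of 2.14. The next probe sets were at 5.13 and 5.54 and at 4.43 and 5.65, and the remaining 4 differed by 0.05 to 0.70 at levels up to 4.30. The direction was thus shared, but the size depended on the probe set and on levels near background.

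EGLN1 encodes PHD2, the main oxygen sensor of the pathway, and was higher in IGR37 on all 4 probe sets. On the brightest probe set its level was 6.95 in IGR39 against 8.09 in IGR37, which is a difference of 1.15 or 2.21-fold. The next was at 6.24 and 8.05 (1.81) and another at 5.42 and 7.06 (1.63), so all 3 probe sets at the minimum were past 2-fold in the same direction. The probe sets with 1.81 and 1.63 have names ending in _x_at and _s_at, and the former can also bind other transcripts. The last was near background, at 3.78 and 4.11. Among all genes at the minimum, 17.2% differed by as much as the brightest probe set in either direction, and 9.09% in that direction. With differences centred on housekeeping genes, the brightest probe set gave 0.94, under the 2-fold limit. EGLN3 encodes PHD3, an enzyme known to be strongly induced by hypoxia. Its probe sets stayed below log2 6 in both lines, at 4.72 and 5.29 and at 3.54 and 4.49, so it was left out of the counts at the log2 6 minimum.

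Of the VEGF ligands, VEGFA and VEGFC passed the 2-fold limit, each lower in IGR37, and VEGFB did not. VEGFA was lower in IGR37 on all 4 probe sets. The brightest was at 8.50 and 6.99, the next at 7.33 and 6.48, and the dimmer ones at 6.04 and 4.99 and at 5.60 and 4.59. The differences ran from -1.51 to -0.85, which is 2.86-fold to 1.80-fold, and their mean over the 4 probe sets was -1.11. The direction was the same on every VEGFA probe set, while the size was largest on the brightest and under 2-fold on the second, and 11.6% of genes differed as much as the brightest one. All 4 have names ending in _s_at or _x_at, and the second and the dimmest, ending in _x_at, can also bind other transcripts.

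VEGFC, the ligand of lymphatic vessel growth, had the largest difference of the members. Its probe set was at 8.57 in IGR39 but at 3.60 in IGR37. The difference was -4.97, and 60 of the 8501 genes (0.706%) differed as much or more. IGR37 was far below log2 6, so the fold of 31.3 rests on a level that cannot be read closely. With IGR37 set to log2 6, the difference would be 5.93-fold. VEGFB, which signals through the receptor FLT1 and is not regarded as a hypoxia target, was slightly higher, at 7.12 and 7.73, a difference of 0.62 within the range of the poly-A spike-ins. ADM encodes adrenomedullin, a vessel-dilating peptide and hypoxia target, and was at 6.87 and 6.35, a difference of -0.52 that 44.7% of genes matched or passed and that lay just outside the range of the poly-A spike-ins.

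**Figure D2:**
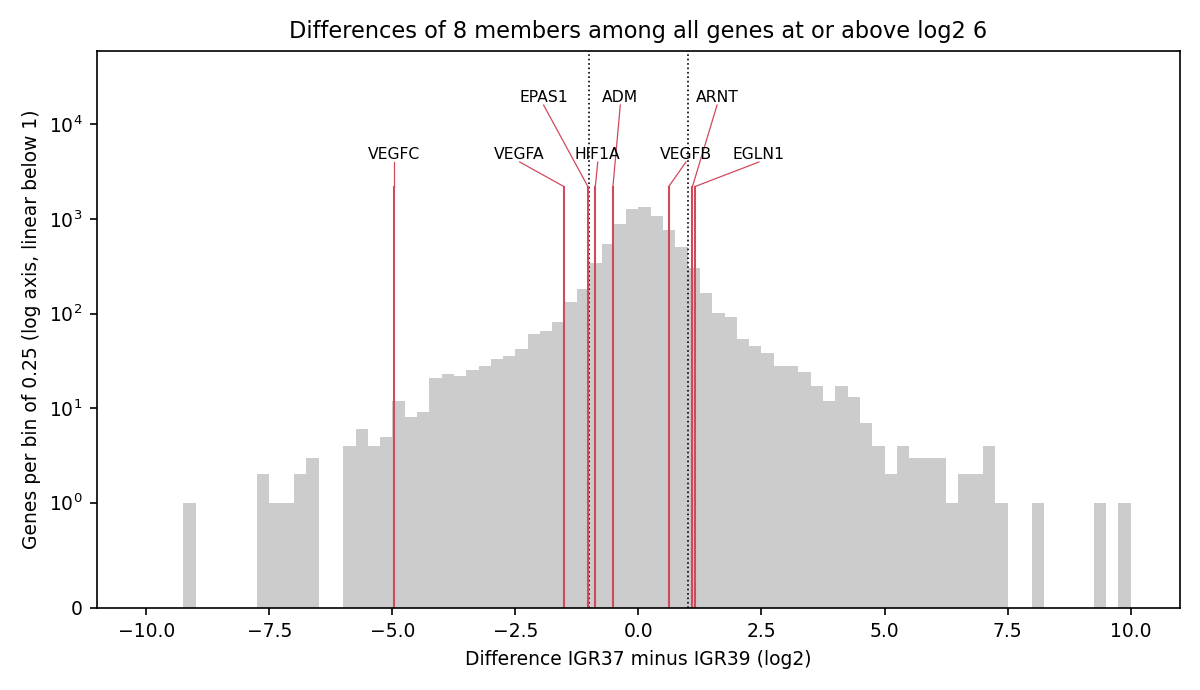
Number of genes (log axis) by difference in expression level, IGR37 minus IGR39 (log2), over the 8501 genes at or above log2 6, with the 8 members as vertical lines and dotted lines at 2-fold. VEGFC, at -4.97, lies in the outer left tail, while the other members lie between -1.51 and 1.15.

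The receptors through which these ligands act were mostly below the minimum. FLT1, KDR and FLT4, which encode VEGF receptors of endothelial cells, had no probe set at log2 6, and their brightest probe sets were at 5.59 and 5.58, at 2.76 and 3.11 and at 4.18 and 4.23. PGF, a further ligand of FLT1, was alike in both lines on its brightest probe set, at 6.95 and 6.97. That probe set can also bind other transcripts (its name ends in _x_at). The other PGF probe set stayed below log2 6 in both lines and differed by -0.28. The neuropilins, co-receptors that bind VEGF and semaphorins, differed in opposite directions. NRP1 was at 9.84 in IGR39 and 3.24 in IGR37, with a difference of -6.60, and its second probe set at the minimum was at 7.85 and 4.36. Its remaining probe sets, all below log2 6, differed by -0.64 and -0.30, so that the mean over its probe sets was -2.76. NRP2 was higher in IGR37 on all 11 probe sets, by 0.16 to 2.46, but only 1 of them reached log2 6, at 5.46 and 6.14. VEGFC and VEGFA thus lay lower in IGR37 alongside NRP1 while no VEGF receptor tyrosine kinase reached the minimum in either line.

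**Figure D3:**
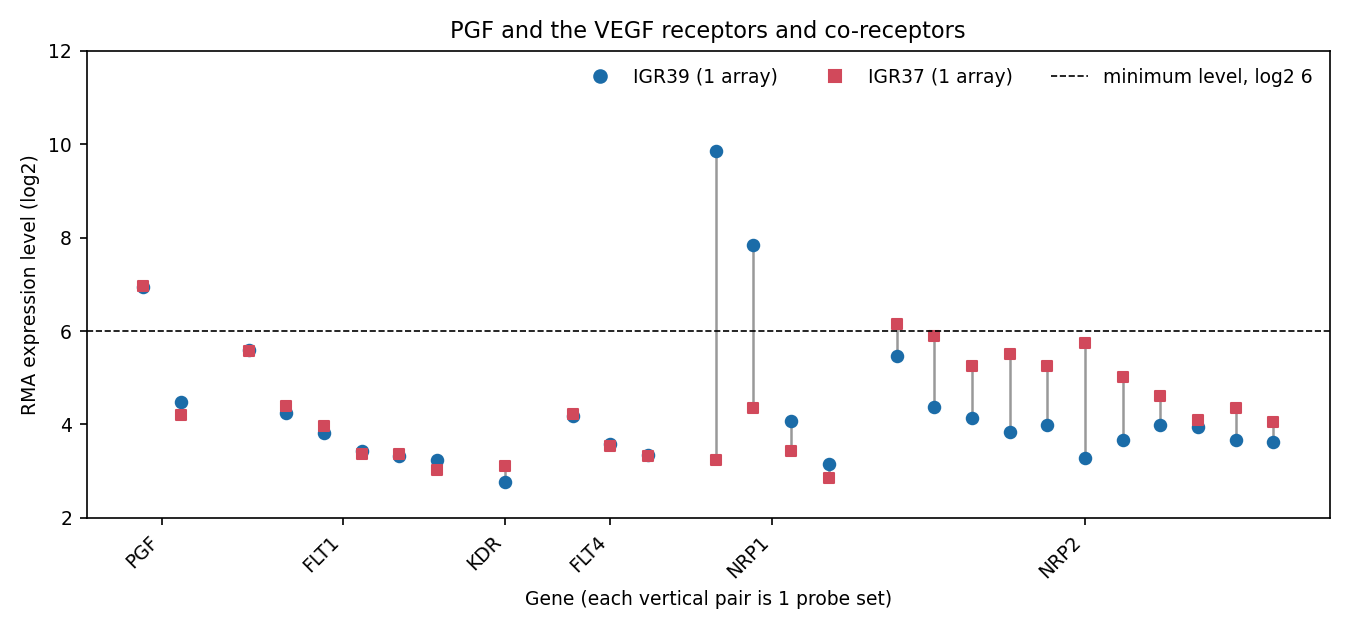
RMA expression level (log2) of every probe set of PGF, the VEGF receptor genes FLT1, KDR and FLT4 and the co-receptor genes NRP1 and NRP2 in IGR39 (circles) and IGR37 (squares), 1 array each, with the minimum of log2 6 dashed. NRP1 lies at 9.84 and 3.24 on its brightest probe set, and all 11 NRP2 probe sets lie higher in IGR37.

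Neither line expressed the receptors of adrenomedullin above the minimum. CALCRL, the receptor itself, was at 3.48 and 3.47. Of the proteins that direct its ligand choice, RAMP1 was at 5.05 and 4.57, RAMP2 at 4.74 and 4.83 and RAMP3 at 4.35 and 4.41. All 5 genes of this list lay between 3.47 and 5.05 over both lines. Of the carbonic anhydrases with their active site outside the cell, CA12 had 7 probe sets, all below log2 6, with its brightest at 5.26 and 5.39. CA14 was at 4.51 and 7.33, with a difference of 2.82 on its only probe set. With IGR39 set to log2 6, its fold was 2.51 instead of 7.06.

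Partners and regulators of HIF past the 2-fold limit were CITED2, P4HTM and ARNT2. Of 22 listed genes 21 were measured and 15 reached the minimum, of which 12 lay within 2-fold, 1 was at least 2-fold higher and 2 at least as far lower, with a median difference of -0.27. Among all genes, 21.0% lay past 2-fold, so the share of these regulators that did was near the background. CITED2, which competes with HIF alpha for the coactivators EP300 and CREBBP and is itself a HIF target, was at 8.13 in IGR39 against 4.13 in IGR37. Another CITED2 probe set was at 7.87 and 4.35, while the last was near background at 4.99 and 4.98. P4HTM, a membrane-bound prolyl hydroxylase, was at 6.67 and 4.88. ARNT2, the paralogue of ARNT, was at 5.02 and 6.65. With the dimmer line set to log2 6, the folds were 4.38 for CITED2 but 1.59 for P4HTM and 1.57 for ARNT2, under the 2-fold limit.

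The remaining sensors and the recognition subunit of the ligase were below the minimum, which limits what their values show. VHL, which recognises hydroxylated HIF alpha, was at 4.57 and 5.36, EGLN2 at 4.03 and 4.05, and the alpha subunit paralogue HIF3A at 5.35 and 5.08. HIF1AN encodes the asparaginyl hydroxylase FIH and was lower in IGR37 on all 3 of its probe sets, with differences from -0.77 to -0.26, all below log2 6.

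Genes known to be induced by hypoxia did not differ in 1 direction. Of 46 listed genes, 44 were measured and 37 reached the minimum. Of these, 21 lay within 2-fold, 10 were higher in IGR37 by 2-fold or more and 6 were lower by as much, and the median difference was 0.17, or -0.04 after centring on housekeeping genes. PGK1 and TFRC are on both the hypoxia list and the housekeeping list, so this centring is not independent of the genes described here. Over all genes, 21.0% were past 2-fold in either direction. The count of higher genes depended on the summary of probe sets: it was 2 when all probe sets of a gene were averaged, and 6 when those with the suffix _x_at or _s_at were left out.

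Among the higher genes, BHLHE41, a transcriptional repressor, was at 5.18 in IGR39 and 8.46 in IGR37. MXI1, an antagonist of MYC, was at 6.65 and 9.17. ANKRD37, a HIF target, was at 4.95 and 6.86 (1.82-fold with IGR39 set to log2 6), and HILPDA, which inhibits the breakdown of lipid droplets, was at 6.21 and 7.77. The histone demethylase gene KDM3A was at 7.03 and 8.53, the hexokinase gene HK2 at 5.87 and 7.29 and PDK1, whose product keeps pyruvate out of the mitochondria, at 5.15 and 6.36. The transferrin receptor gene TFRC was at 10.25 and 11.65 on its brightest probe set, but its 4 probe sets at the minimum ran from -0.23 to 1.56.

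The lower genes were led by STC2, which encodes the secreted glycoprotein stanniocalcin-2, at 8.06 in IGR39 and 5.16 in IGR37 on its brightest probe set. The 2 STC2 probe sets at the minimum differed by -4.14 and -2.90. NDRG1, a stress-induced gene, was at 7.31 and 5.79. The collagen prolyl hydroxylase gene P4HA2 was at 9.56 and 8.20 on its brightest probe set, and its 2 probe sets at the minimum differed by -2.60 and -1.35. Of the genes of glycolytic control, PFKP was at 10.89 and 9.56 and PFKFB3 at 8.02 and 6.75. ANGPTL4, a secreted inhibitor of lipoprotein lipase, was at 6.04 and 5.03. Other glycolytic genes of the list lay within 2-fold: LDHA differed by 0.06, PGK1 by 0.44, ALDOA by 0.31, ENO1 by 0.00, TPI1 by -0.19, PGAM1 by -0.21 and PFKFB4 by 0.16. With IGR37 set to log2 6, the fold of ANGPTL4 was 1.03 instead of 2.01.

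**Figure D4:**
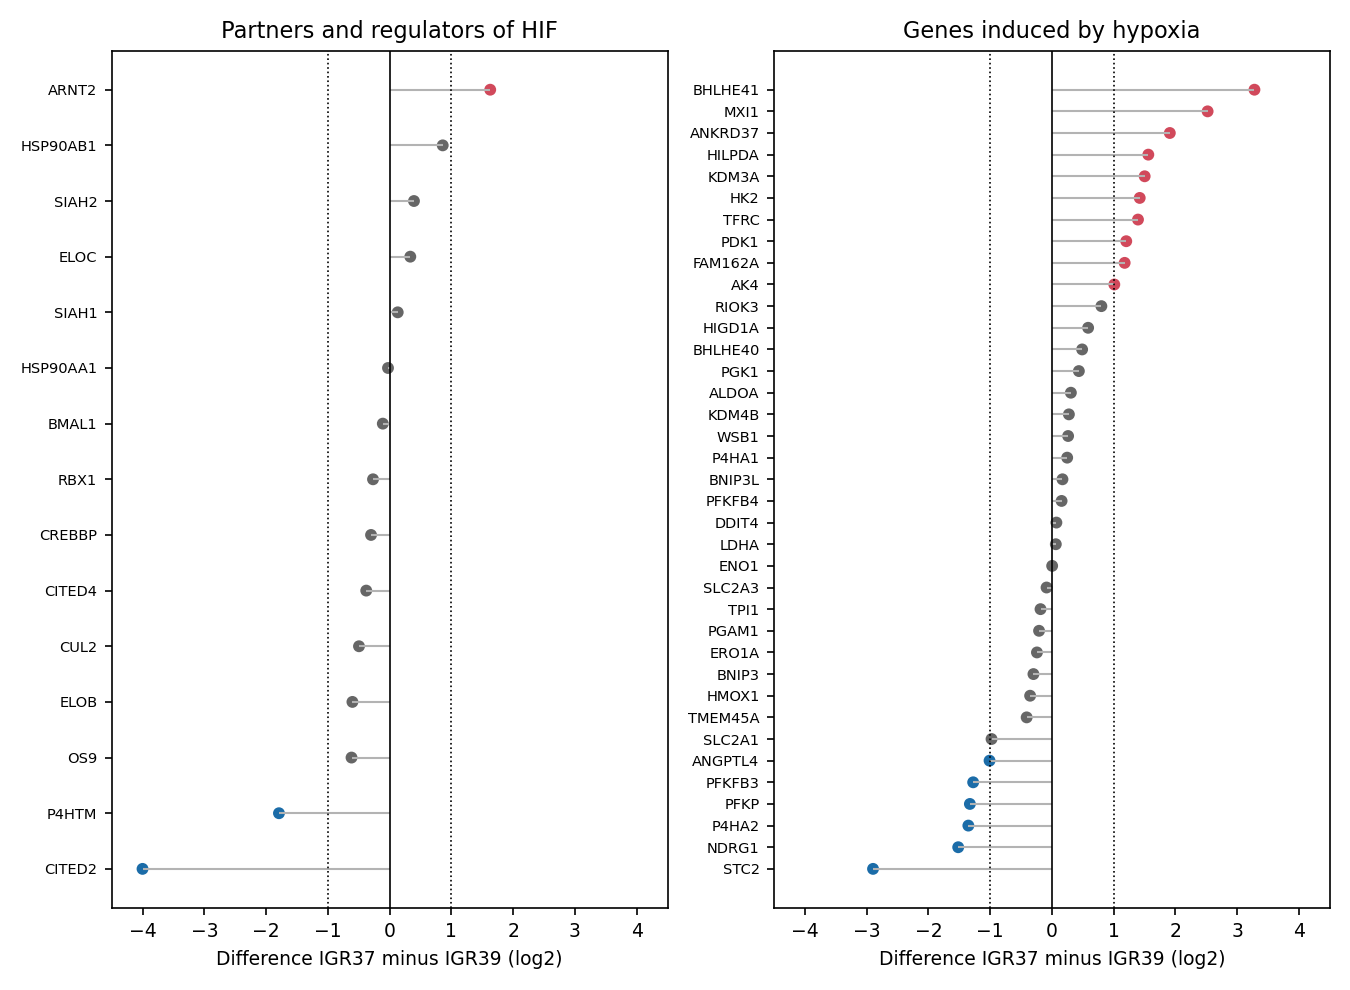
Difference in expression level, IGR37 minus IGR39 (log2), of the 15 partners and regulators of HIF (left) and the 37 hypoxia-induced genes (right) at or above log2 6, with dotted lines at 2-fold. CITED2 is lowest on the left at -4.00, and the genes on the right spread from -2.90 (STC2) to 3.28 (BHLHE41).

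Targets were also read in lists drawn up by the alpha subunit they are thought to prefer. This grouping was chosen here with earlier results of these data known, and it was not tested in these data. The 8 genes listed as preferring HIF1A, mostly glycolytic, all reached the minimum, with 2 at least 2-fold higher (HK2 and PDK1), 0 lower and a median difference of 0.23, beside 11.4% higher and 9.50% lower among all genes. With the mean over probe sets, 0 genes of this list were counted as higher, and with IGR39 set to log2 6 the fold of PDK1 was 1.28. Of 8 genes listed as preferring EPAS1, 6 were measured and 5 reached the minimum, with 3 at least 2-fold lower, 0 higher and a median of -3.16. That median is the value of TGFA. It was -1.27 with the mean over probe sets, and -1.77 with no minimum as well as without the suffixes _x_at and _s_at. The count of lower genes was 2 with that mean and 2 without those suffixes. The 3 were LOXL2, a collagen cross-linking enzyme, at 11.07 and 4.01 on its brightest probe set and with -2.09 on its other one at the minimum, CITED2, and the growth factor gene TGFA, at 7.09 and 3.93. In IGR37 all 3 stood below log2 6, and with that line set to log2 6 the fold of TGFA was 2.12. TGFA and LOXL2 are named here because of that small count, after their values were seen. The others lay close together in the lines, with DLL4, a NOTCH ligand, at 6.92 and 6.55 and the cyclin gene CCND1 at 8.20 and 8.29. All 8 genes of the HIF1A list are also among the hypoxia-induced genes above, and CITED2 is among the regulators, so these counts are not separate evidence.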

How the data were processed

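RNA of IGR39 and IGR37 was measured on 1 array per line. The authors deposited log2 levels for each probe set. Per the submitters' processing notes these come from RMA and the affy package. Their versions and the set of arrays normalised together are not given in the sources consulted. RMA models background and equalises the distributions of the arrays, which compresses differences between low levels and removes overall shifts.

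Symbols were taken from the platform annotation and updated by gene identifier through RefSeq (GRCh38.p14). Of 54675 probe sets, 41091 had 1 symbol and no control role, 1801 had several, 62 were controls and 11721 were unnamed here. The brightest probe set stood for a gene, with a minimum of log2 6 and a limit of 2-fold. The number of arrays, 1 per line, limits the precision, so no test was run. Alternatives were another minimum (log2 5, log2 7 or none), the mean over probe sets, omitting those with the suffix _x_at or _s_at, and 3 scalings (array medians, housekeeping genes and a lowess trend of span 0.3, each applied to the differences).

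The members and lists were chosen with earlier results of these data known. Named genes were all members, a fixed group of receptors and regulators, and up to 8 genes per direction past 2-fold in each list of over 8 genes. Further genes of the lists, such as RAMP2 and LDHA, are named beside these. Likeness to other genes was not computed, since 2 arrays give each gene a single difference. VEGFD and a few other listed genes had no named probe set and were not analysed here. The calculation was tested on simulated data. Python 3.11.15, numpy 2.4.6, pandas 2.3.3, statsmodels 0.14.6 and matplotlib 3.10.9 were used.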

Additional observations from a re-analysis of the deposited data

How the results depend on the processing

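The 8 alternatives gave 63 values of the members' differences. An alternative gave none for a member that fell below its minimum or had no probe set left, as for ARNT at a minimum of log2 7. EGLN3 was treated otherwise: it lay below log2 6, yet its values are among the 63. They ran from 0.37 after centring on housekeeping genes to 0.76 with the mean over probe sets. None of the 63 changed direction, and 62 moved by less than the spread within genes (SD 0.40). The exception was VEGFA, at -1.11 when all probe sets were averaged. Most of the alternatives could not have moved a difference so far. Changing the minimum leaves a member's difference as it is, and the scalings shift it by at most 0.21. Without the suffixes _x_at and _s_at, each member that had a value kept the same probe set. Only the mean over probe sets could move a difference past 0.40, and it gave no value for EPAS1 or ARNT. The limit of 2-fold was less steady: the members at least 2-fold higher numbered 1 at a minimum of log2 7, 1 with the mean over probe sets, 1 without the suffixes _x_at and _s_at and 0 after centring on housekeeping genes. The members at least 2-fold lower numbered 2 with the mean over probe sets, where EPAS1 fell below the minimum, 2 without those suffixes, which all VEGFA probe sets carry, and 4 with either the lowess trend removed or housekeeping centring. With the mean over probe sets, 588 genes were at least 2-fold higher and 503 lower. Among partners and regulators of HIF, the higher genes numbered 0 at log2 7 and 2 with the mean over probe sets, and the lower genes 1 at log2 7 and 1 without those suffixes. Among hypoxia-induced genes, 2 were higher with the mean over probe sets, and 6 higher and 3 lower without those suffixes. Of the genes preferring HIF1A, 1 was higher at log2 7, 0 with the mean over probe sets and 1 after centring on housekeeping genes. The median of those preferring EPAS1 was -3.58 at log2 7, -1.77 without a minimum, -1.27 with the mean over probe sets and -1.77 without those suffixes. A higher minimum and the leaving out of probe sets test fewer genes; otherwise the cause was not tested. Among the named genes past 2-fold, VEGFC, NRP1, CITED2, P4HTM, LOXL2, TGFA, STC2, NDRG1 and ANGPTL4 in IGR37, and ARNT, ARNT2, ANKRD37, PDK1, HK2, BHLHE41 and CA14 in IGR39, lay under log2 6, where signal over background limits the size of a difference. No paired analysis was possible because each line has 1 array.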
